A study of Saccharomyces cerevisiae with 12 samples.

Results

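The genes of peroxisome assembly and fatty acid beta-oxidation were 38 of the 5449 Saccharomyces cerevisiae genes tested, and were chosen by gene name, with earlier results of these data known. They fell into 9 enzymes and 3 membrane transporters, 2 transcription factors and 24 peroxins, the proteins encoded by PEX genes. All 38 symbols were found in the array annotation, each with a single probe set that carries no suffix for sequence shared with other genes. All arrays held RNA of EC1118 (Lallemand Inc.), a commercial wine yeast, with no genetic change named in any group. The bottle samples came from a second fermentation, in which base wine with added sugar is fermented again in the closed bottle. Cells grown in YPD were kept for 4 to 5 days at 28 °C in a medium of base wine, sucrose, tartaric acid and diammonium phosphate, then added with 20 g/L sucrose to base wine. Sealed bottles of 350 mL stood unshaken at 16 °C for about 40 days, and cells were taken at day 7, day 15 and day 19, after ethanol increases of 0.26%, 0.89% and 1.27%. The reference was the same strain in exponential growth in YPD at 28 °C, taken at an optical density of 1.0. Medium, temperature, ethanol and growth phase all differ between the bottles and the reference, and their parts cannot be told apart.

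In yeast, fatty acids are broken down in peroxisomes alone. Peroxisomes are organelles whose enzymes are made in the cytosol and imported, folded, by receptor peroxins that recognise peroxisomal targeting signals. Glucose is known to repress the genes of beta-oxidation. Oleate induces them through the transcription factors Oaf1 and Pip2, which act together with Adr1, an activator of genes repressed by glucose. Peroxins build the organelle: they insert its membrane proteins, dock and recycle the import receptors, and set the size and number of peroxisomes.

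Each of the 4 groups held 3 arrays, called biological replicates in the labels. The bottle replicates were from independent tirage assays. For the reference nothing says that the cultures were separate, so its spread may be technical and p-values measure only the spread between these samples. Values are log2 probe set summaries made by the authors with RMA, and background was taken per array as the 0.95 quantile of 1746 probe sets for S. pombe, another yeast. The members' median SD was 0.349 at day 7, 0.338 at day 15 and 0.51 at day 19, against 0.127 in the reference. Over all genes tested it was 0.321, 0.295 and 0.428, against 0.118 in the reference. Probe sets for ribosomal RNA averaged 12.20, 12.37 and 12.28 at day 7, day 15 and day 19, against 6.40 in the reference. The 3' probe set of ACT1, the actin gene, exceeded its 5' probe set by 0.44, 0.40 and 0.44 in the bottles, against 0.23 in the reference. Principal components of all genes placed replicate 1 of day 7 and replicate 1 of day 19 away from the other 7 bottle arrays, so results are also given without them. In bulk RNA, fewer cells expressing a gene and less RNA per cell cannot be told apart.

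Many genes of beta-oxidation and peroxisome assembly were called higher in the bottles than in the growing culture, and none was called lower. A gene is called higher or lower where limma's adjusted p, by Benjamini-Hochberg over all genes, was under 0.05. The fit gave each gene 1 spread shared by the 4 groups, so its SE is the same at each time. The groups' own spreads differed, from a members' median SD of 0.127 in the reference to 0.51 at day 19. An SE at day 19 therefore does not show the larger spread there. Of the 38 members, 17 were called higher at day 7, 21 at day 15 and 27 at day 19, where 19.7%, 21.4% and 22.7% of all genes tested were. No member was called lower at any of the 3 times (17.1%, 23.5% and 20.8% of all genes). In either direction, 24, 24 and 27 members had an unadjusted p under 0.05, as did 2615, 2898 and 2834 of all 5449 genes. The 3 comparisons share their reference arrays. The median change of the members was 0.80, 0.96 and 1.12 on the log2 scale, against -0.03, -0.08 and -0.03 over all genes. In all, 15 members were called higher at all 3 times, 27 at 1 time or more and 11 at none. Of the 5449 genes tested, 816 were called higher at all 3 times and 1527 at 1 time or more. Not called at any time, in either direction, were 2337 of them. All 3 bottle arrays lay above all 3 reference arrays for 28, 28 and 27 members (30.8%, 33.0% and 28.9% of all genes), and below them for 3, 2 and 1 (33.0%, 37.8% and 30.6%).

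Without both arrays that stood apart, 19, 27 and 24 members were called higher, and 18 at all 3 times. In that fit 44%, 59% and 52.5% of all genes were called in either direction, against 36.8%, 44.9% and 43.5% with all arrays. With each array's trend on coding length removed, 17, 21 and 28 were called higher, and at day 15 45.2% of all genes in either direction. With only the arrays of the groups compared in each fit, 24, 27 and 23 members were called higher. At day 15 that setting called 60.9% of all genes in either direction. There, and without day 19 replicate 1 (24, 26 and 22 higher), the count did not rise from day 7 to day 19. The part of ribosomal RNA and of RNA integrity in the members' changes was not tested further. Among fits that left out 1 array, the day 7 count was lowest, 11, without reference replicate 2, and highest, 25 with 1 of them lower, without day 19 replicate 1. The share of all genes moved as well: at day 15 these fits called 32.1% and 52.3% of all genes in either direction. The day 15 count was 14 without day 15 replicate 2 or 3, where 31.1% and 32.1% of all genes were called in either direction.

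**Figure D1:**
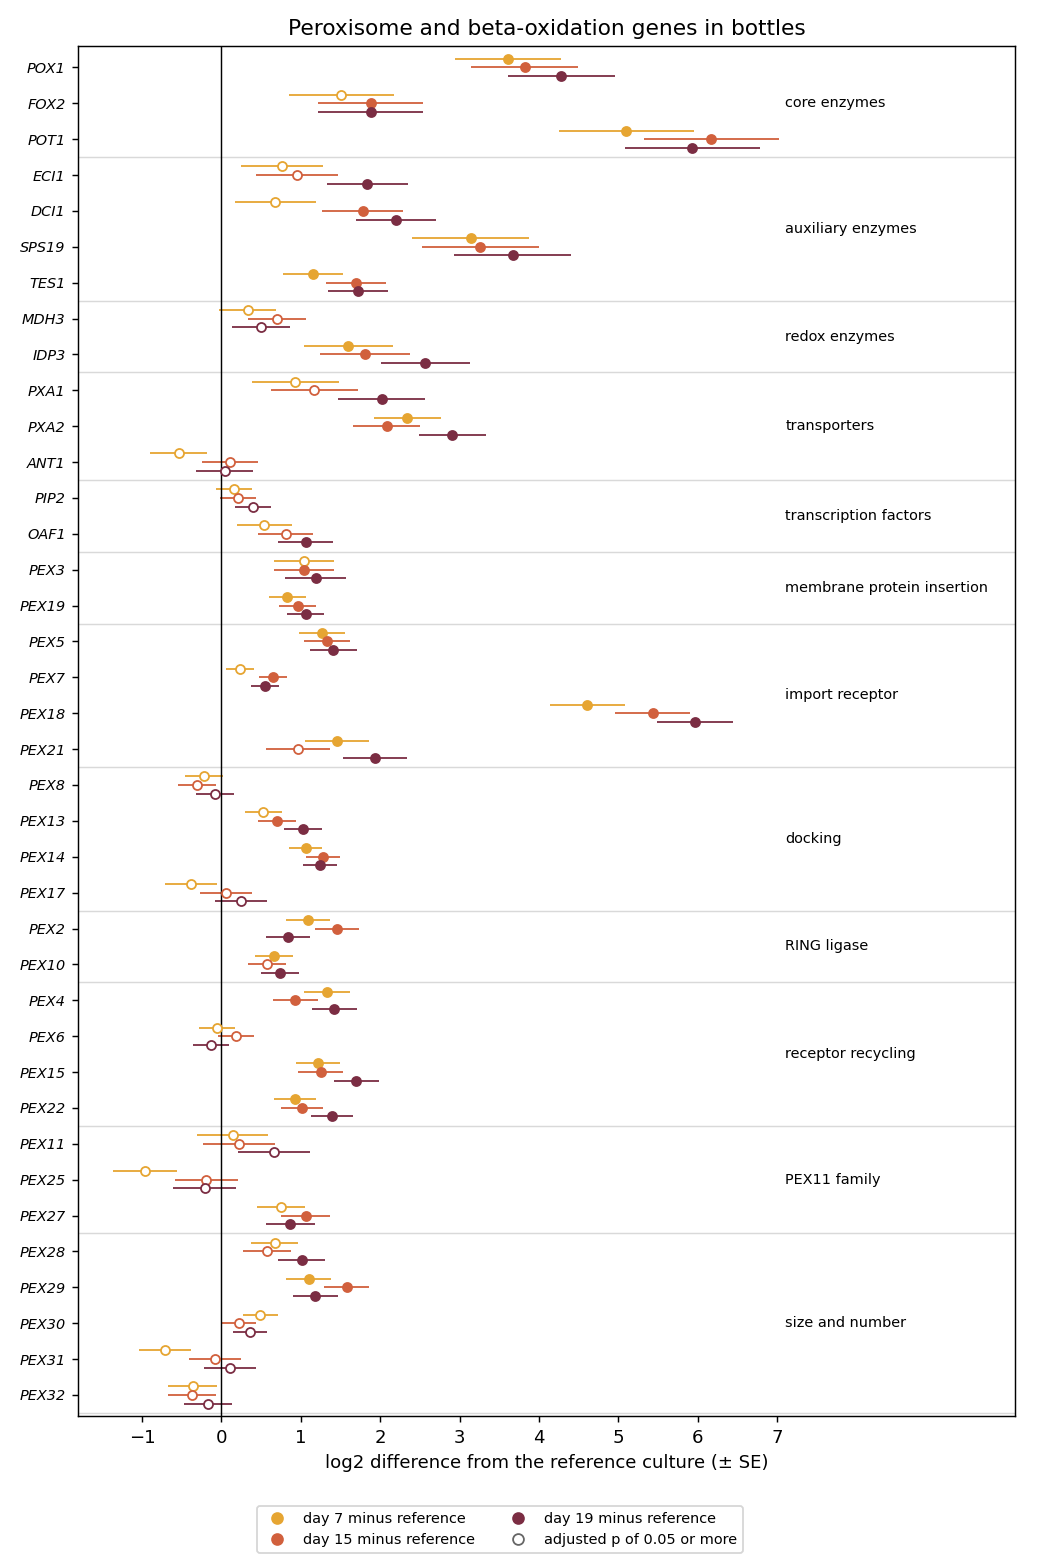
Log2 difference of each of the 38 genes from the reference culture (x axis, ± SE) at day 7, day 15 and day 19, with 3 arrays per group and genes (y axis) grouped by role. Filled points have an adjusted p under 0.05. POT1, PEX18 and POX1 lie farthest to the right, and no filled point lies left of 0. PEX18 is drawn at its measured difference, but was below background in the reference. Its change is known only as a lower bound, 3.97 at day 7, 4.8 at day 15 and 5.33 at day 19.

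Of the 3 enzymes that carry out the beta-oxidation cycle itself, POX1 and POT1 were called higher at every time and FOX2 at day 15 and day 19. POX1, the acyl-CoA oxidase of the first step, had log2 values of 9.74, 8.54 and 9.99 at day 7, 9.08, 9.88 and 9.93 at day 15 and 12.01, 9.23 and 9.03 at day 19. Reference arrays of POX1 had 5.60, 5.79 and 6.04. Every bottle array lay above every reference array. Its change was 3.61 ± 0.671 (adjusted p = 0.00212) at day 7, 3.82 ± 0.671 (adjusted p = 0.00125) at day 15 and 4.28 ± 0.671 (adjusted p = 0.00067) at day 19. POT1, the thiolase that releases acetyl-CoA in the last step, stood at 10.79, 8.78 and 11.39 at day 7, 9.85, 12.03 and 12.28 at day 15 and 12.79, 10.75 and 9.91 at day 19. Reference arrays of POT1 had 4.90, 5.18 and 5.57. Its reference values lay just above the background of those arrays, 4.72 to 4.82, and all bottle arrays far above it. The change of POT1 was 5.10 ± 0.849 (adjusted p = 0.00113) at day 7, 6.17 ± 0.849 (adjusted p = 0.000328) at day 15 and 5.93 ± 0.849 (adjusted p = 0.000388) at day 19, or 34.3-fold, 72.0-fold and 61.2-fold. The POT1 change was 5.87 at day 7 without day 7 replicate 2, 6.94 at day 15 without day 15 replicate 1 and 6.56 at day 19 without day 19 replicate 3. FOX2, the multifunctional enzyme of the middle steps, had 11.38, 10.10 and 11.35 at day 7, 10.50, 11.54 and 11.89 at day 15 and 13.10, 10.66 and 10.16 at day 19. Reference arrays of FOX2 had 9.33, 9.35 and 9.61. The groups again did not overlap, but the lowest bottle arrays came within 1 log2 unit of the reference. FOX2 differed by 1.51 ± 0.662 (adjusted p = 0.0924) at day 7, 1.88 ± 0.662 (adjusted p = 0.0374) at day 15 and 1.88 ± 0.662 (adjusted p = 0.0391) at day 19. Its call was met at day 15 and day 19 but not at day 7. The FOX2 call at day 15 was lost without reference replicate 1, 2 or 3 or day 15 replicate 2 or 3 (adjusted p up to 0.128). Its day 19 call was lost without reference replicate 1, 2 or 3, day 15 replicate 2 or day 19 replicate 1 (adjusted p up to 0.0981). Without day 19 replicate 1 the day 19 changes were 3.32 (adjusted p = 0.000175) for POX1, 5.11 (adjusted p = 0.00076) for POT1 and 0.98 (adjusted p = 0.0981) for FOX2.

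**Figure D2:**
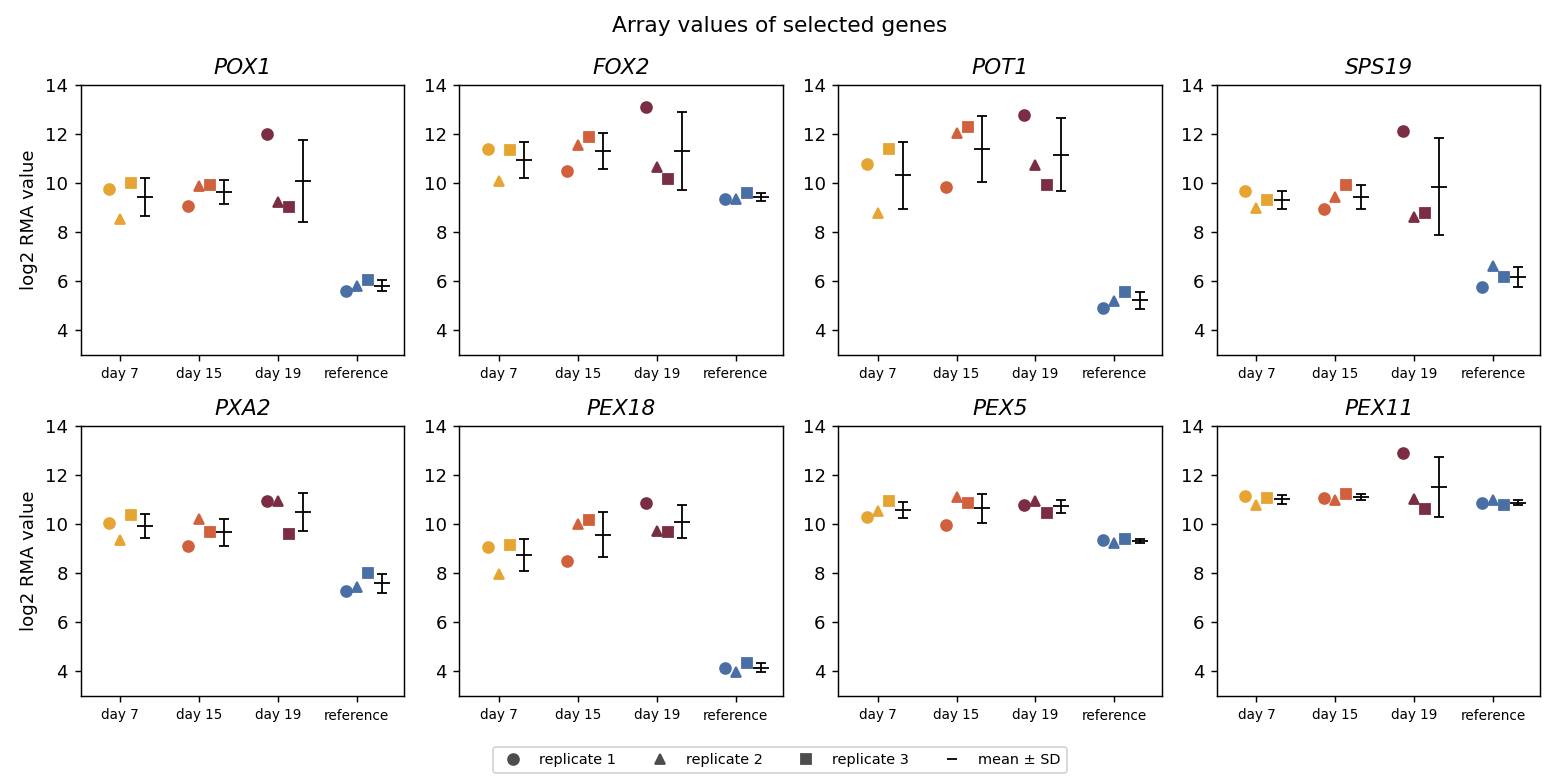
Log2 RMA values (y axis) of 8 genes on every array at day 7, day 15, day 19 and in the reference (x axis), with marker shapes for replicates 1 to 3 and the mean ± SD of 3 arrays beside them. All bottle arrays of POX1, FOX2, POT1, SPS19, PXA2, PEX18 and PEX5 lie above the reference, FOX2 and PEX5 coming closest, while those of PEX11 overlap it. Replicate 1 of day 19 stands apart for POX1, FOX2, SPS19 and PEX11.

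The auxiliary enzymes, which prepare unsaturated fatty acids for the cycle or release its products, were all called at day 19, and SPS19 and TES1 at every time. SPS19, the 2,4-dienoyl-CoA reductase, had 9.67, 8.97 and 9.29 at day 7, 8.93, 9.44 and 9.91 at day 15 and 12.12, 8.62 and 8.78 at day 19. Reference arrays of SPS19 had 5.75, 6.60 and 6.15. Every bottle array lay more than 2 log2 units above the reference, and the change was 3.14 ± 0.737 (adjusted p = 0.00744) at day 7, 3.26 ± 0.737 (adjusted p = 0.00474) at day 15 and 3.67 ± 0.737 (adjusted p = 0.00276) at day 19. ECI1, a delta3,delta2-enoyl-CoA isomerase, had 9.75, 9.08 and 10.02 at day 7, 9.48, 9.85 and 10.07 at day 15 and 12.19, 9.73 and 10.16 at day 19. Reference arrays of ECI1 had 8.74, 8.79 and 9.02. Its groups did not overlap at any time, yet the change was 0.76 ± 0.515 (adjusted p = 0.262) at day 7, 0.95 ± 0.515 (adjusted p = 0.153) at day 15 and 1.84 ± 0.515 (adjusted p = 0.0147) at day 19. Of these only the last passed. DCI1, a paralogue of ECI1, stood at 7.05, 7.17 and 8.43 at day 7, 7.85, 9.28 and 8.81 at day 15 and 10.03, 9.02 and 8.16 at day 19. Reference arrays of DCI1 had 6.77, 7.00 and 6.84. Day 7 replicates 1 and 2 barely exceeded the reference, and the changes were 0.68 ± 0.508 (adjusted p = 0.308) at day 7, 1.78 ± 0.508 (adjusted p = 0.015) at day 15 and 2.20 ± 0.508 (adjusted p = 0.00567) at day 19. TES1, a peroxisomal acyl-CoA thioesterase, was called at all 3 times, with changes of 1.15 ± 0.377 (adjusted p = 0.0333) at day 7, 1.69 ± 0.377 (adjusted p = 0.00434) at day 15 and 1.72 ± 0.377 (adjusted p = 0.00432) at day 19. The day 7 call of TES1 was lost without reference replicate 1, 2 or 3 or day 7 replicate 1, 2 or 3 (adjusted p up to 0.0932). The day 15 call of DCI1 was lost without day 15 replicate 2 or 3 (adjusted p up to 0.0687). The day 19 calls of DCI1 and ECI1 held with any 1 array left out. With quantile normalization, however, that of DCI1 was lost. That of ECI1 was lost at an adjusted p under 0.01 and with only the groups compared in the fit. Without day 19 replicate 1, the day 19 change was 2.53 (adjusted p = 0.000279) for SPS19, 1.09 (adjusted p = 0.0124) for ECI1 and 1.72 (adjusted p = 0.0148) for DCI1, while that of SPS19 was 4.28 without day 19 replicate 2.

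Of the redox enzymes IDP3 was called at every time and MDH3 at none. IDP3, the peroxisomal NADP-dependent isocitrate dehydrogenase that supplies NADPH for unsaturated fatty acids, had 9.52, 8.44 and 9.08 at day 7, 8.83, 9.35 and 9.48 at day 15 and 11.63, 8.96 and 9.38 at day 19. Reference arrays of IDP3 had 7.39, 7.26 and 7.61. All bottle arrays exceeded the reference, and the change was 1.60 ± 0.562 (adjusted p = 0.044) at day 7, 1.81 ± 0.562 (adjusted p = 0.0221) at day 15 and 2.57 ± 0.562 (adjusted p = 0.00426) at day 19. The day 7 call of IDP3 was lost without reference replicate 1, 2 or 3, day 7 replicate 1 or 3 or day 15 replicate 1, 2 or 3 (adjusted p up to 0.128). The day 15 call was lost without reference replicate 1 or 2 or day 15 replicate 2 or 3 (adjusted p up to 0.0735). MDH3, the peroxisomal malate dehydrogenase that reoxidises NADH from the cycle, had 12.23, 11.87 and 12.48 at day 7, 12.15, 12.81 and 12.72 at day 15 and 13.32, 11.81 and 11.96 at day 19. Reference arrays of MDH3 had 11.75, 11.82 and 12.01. Its day 7 and day 19 arrays overlapped the reference, and the changes of 0.33 ± 0.364 (adjusted p = 0.491) at day 7, 0.70 ± 0.364 (adjusted p = 0.139) at day 15 and 0.50 ± 0.364 (adjusted p = 0.283) at day 19 did not pass. The day 19 change was 1.75 (adjusted p = 0.00169) for IDP3 and 0.02 (adjusted p = 0.947) for MDH3 without day 19 replicate 1.

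Of the transporters of the peroxisomal membrane, PXA2 was called higher at every time, its partner PXA1 at day 19 and the ATP carrier ANT1 at none. PXA2, a subunit of the ABC transporter that imports long-chain acyl-CoA, had 10.06, 9.37 and 10.36 at day 7, 9.10, 10.23 and 9.67 at day 15 and 10.95, 10.95 and 9.60 at day 19. Reference arrays of PXA2 had 7.29, 7.45 and 8.02. The groups did not overlap at any time. The change was 2.34 ± 0.423 (adjusted p = 0.0018) at day 7, 2.08 ± 0.423 (adjusted p = 0.0027) at day 15 and 2.91 ± 0.423 (adjusted p = 0.000423) at day 19. PXA1, the partner subunit, had 9.76, 9.32 and 10.06 at day 7, 9.53, 10.00 and 10.32 at day 15 and 12.38, 9.98 and 10.06 at day 19. Reference arrays of PXA1 had 8.53, 8.52 and 9.30. Although all bottle arrays of PXA1 lay above the reference, its changes were 0.93 ± 0.546 (adjusted p = 0.199) at day 7, 1.17 ± 0.546 (adjusted p = 0.101) at day 15 and 2.02 ± 0.546 (adjusted p = 0.0123) at day 19. Only day 19 passed, while day 7 and day 15 each passed in 4 of 25 alternative settings. Without day 19 replicate 1 the day 19 values were 1.24 (adjusted p = 0.0104) for PXA1 and 2.69 (adjusted p = 0.00121) for PXA2. ANT1, the adenine nucleotide carrier, had 9.15, 10.56 and 10.76 at day 7, 10.77, 10.73 and 10.93 at day 15 and 10.80, 11.01 and 10.41 at day 19. Reference arrays of ANT1 had 10.65, 10.68 and 10.76. Apart from the low value of day 7 replicate 1, these arrays lay close together, and the changes were -0.54 ± 0.354 (adjusted p = 0.248) at day 7, 0.11 ± 0.354 (adjusted p = 0.812) at day 15 and 0.04 ± 0.354 (adjusted p = 0.929) at day 19.

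Of the genes of the oleate-responsive factors, OAF1 was called at day 19 and PIP2 at no time. OAF1, which binds oleate and activates the response, had 10.74, 10.18 and 10.66 at day 7, 9.99, 11.37 and 11.04 at day 15 and 10.63, 10.99 and 11.52 at day 19. Reference arrays of OAF1 had 10.03, 9.79 and 10.14. Day 15 replicate 1 overlapped the reference, and the other bottle arrays lay above it. Its changes were 0.54 ± 0.348 (adjusted p = 0.238) at day 7, 0.81 ± 0.348 (adjusted p = 0.0764) at day 15 and 1.06 ± 0.348 (adjusted p = 0.0288) at day 19. Of these 1 of 3 passed, and that call was lost without reference replicate 1, 2 or 3 or day 19 replicate 2 or 3 (adjusted p up to 0.103). PIP2, the partner of Oaf1, had 9.68, 9.08 and 9.46 at day 7, 9.31, 9.72 and 9.33 at day 15 and 9.85, 9.79 and 9.31 at day 19. Reference arrays of PIP2 had 9.29, 9.10 and 9.35. The bottle arrays overlapped the reference at each time, with changes of 0.16 ± 0.228 (adjusted p = 0.597) at day 7, 0.21 ± 0.228 (adjusted p = 0.478) at day 15 and 0.40 ± 0.228 (adjusted p = 0.172) at day 19.

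Among the peroxins, the import receptors and their helpers ranged from the largest peroxin change, that of PEX18, to the small one of PEX7. PEX18, a co-receptor that works with Pex7 to import proteins carrying the second type of targeting signal, had 9.07, 7.99 and 9.17 at day 7, 8.51, 10.03 and 10.17 at day 15 and 10.87, 9.74 and 9.70 at day 19. Reference arrays of PEX18 had 4.13, 3.96 and 4.33. It was above background on all 9 bottle arrays and on none of the 3 reference arrays, and limma's adjusted p was 6.92e-05, 2.54e-05 and 1.16e-05 at the 3 times. Set against the background of the reference arrays, PEX18 was at least 15.7-fold higher at day 7, at least 27.8-fold higher at day 15 and at least 40.3-fold higher at day 19. PEX21, a co-receptor partly redundant with PEX18, had 10.18, 9.14 and 8.24 at day 7, 8.75, 8.97 and 8.34 at day 15 and 9.24, 9.93 and 9.82 at day 19. Reference arrays of PEX21 had 7.76, 7.62 and 7.80. All bottle arrays were above the reference, and the change was 1.46 ± 0.403 (adjusted p = 0.0158) at day 7, 0.96 ± 0.403 (adjusted p = 0.0716) at day 15 and 1.94 ± 0.403 (adjusted p = 0.00335) at day 19. The day 7 value of PEX21 was 0.96 (adjusted p = 0.0393) without day 7 replicate 1, and its call was lost without reference replicate 2 (adjusted p up to 0.0549). PEX5, the receptor of the first and most common type of targeting signal, had 10.31, 10.52 and 10.94 at day 7, 9.97, 11.11 and 10.86 at day 15 and 10.80, 10.96 and 10.45 at day 19. Reference arrays of PEX5 had 9.35, 9.22 and 9.39. All bottle arrays were above the reference. The change was 1.27 ± 0.293 (adjusted p = 0.00691) at day 7, 1.33 ± 0.293 (adjusted p = 0.00425) at day 15 and 1.41 ± 0.293 (adjusted p = 0.0033) at day 19. PEX7, the receptor for the second type of signal, had smaller differences, of 0.23 ± 0.177 (adjusted p = 0.328) at day 7, 0.65 ± 0.177 (adjusted p = 0.0119) at day 15 and 0.55 ± 0.177 (adjusted p = 0.0276) at day 19. The PEX7 call at day 15 was lost without day 15 replicate 3 (adjusted p up to 0.0502). At day 19 it was lost without reference replicate 1, 2 or 3 or day 19 replicate 3 (adjusted p up to 0.0869).

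Of the peroxins that insert membrane proteins, PEX19 was called at every time and PEX3 at day 15 and day 19. PEX19, a chaperone and import receptor for peroxisomal membrane proteins, had 11.50, 11.25 and 11.43 at day 7, 11.31, 11.39 and 11.86 at day 15 and 12.05, 11.37 and 11.45 at day 19. Reference arrays of PEX19 had 10.49, 10.48 and 10.71. It did not overlap the reference at any time and differed by 0.83 ± 0.231 (adjusted p = 0.0162) at day 7, 0.96 ± 0.231 (adjusted p = 0.00651) at day 15 and 1.06 ± 0.231 (adjusted p = 0.00413) at day 19. PEX3, the membrane anchor to which Pex19 delivers them, had 11.07, 10.38 and 10.63 at day 7, 10.14, 11.09 and 10.83 at day 15 and 11.65, 10.02 and 10.84 at day 19. Reference arrays of PEX3 had 9.57, 9.52 and 9.87. All bottle arrays were above the reference, the lowest at day 19. The changes of PEX3 were 1.04 ± 0.383 (adjusted p = 0.0515) at day 7, 1.04 ± 0.383 (adjusted p = 0.045) at day 15 and 1.19 ± 0.383 (adjusted p = 0.0277) at day 19. The PEX3 day 15 call was lost without reference replicate 1, 2 or 3, day 7 replicate 2 or 3, day 15 replicate 2 or 3 or day 19 replicate 3 (adjusted p up to 0.159). At day 19 the PEX3 call was lost without reference replicate 1 or 2 or day 19 replicate 1 or 3 (adjusted p up to 0.0846). PEX19 lost its day 7 call without reference replicate 1 or 2 (adjusted p up to 0.0623).

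The docking site, where loaded receptors meet the membrane, held one gene called at every time, PEX14, beside others called at some times or at none. PEX14, its central component, had 10.77, 10.27 and 10.66 at day 7, 10.51, 11.02 and 10.83 at day 15 and 10.95, 10.65 and 10.62 at day 19. Reference arrays of PEX14 had 9.65, 9.45 and 9.42. These groups did not overlap, and the change was 1.06 ± 0.211 (adjusted p = 0.00314) at day 7, 1.28 ± 0.211 (adjusted p = 0.000872) at day 15 and 1.24 ± 0.211 (adjusted p = 0.00111) at day 19. PEX13, which binds both Pex5 and Pex14, had 9.33, 9.86 and 9.91 at day 7, 9.58, 9.81 and 10.24 at day 15 and 9.96, 10.44 and 10.21 at day 19. Reference arrays of PEX13 had 9.13, 9.08 and 9.30. Day 7 replicate 1 lay close to the reference and all other bottle arrays higher. PEX13 differed by 0.53 ± 0.238 (adjusted p = 0.0987) at day 7, 0.70 ± 0.238 (adjusted p = 0.0317) at day 15 and 1.03 ± 0.238 (adjusted p = 0.00558) at day 19. The PEX13 day 15 call was lost without reference replicate 1, 2 or 3 or day 15 replicate 2 or 3 (adjusted p up to 0.136). PEX17, another docking component, had 7.80, 8.90 and 9.20 at day 7, 9.06, 9.06 and 9.09 at day 15 and 9.53, 8.78 and 9.47 at day 19. Reference arrays of PEX17 had 8.98, 9.07 and 8.98. Its bottle arrays lay on both sides of the reference, with changes of -0.38 ± 0.326 (adjusted p = 0.377) at day 7, 0.06 ± 0.326 (adjusted p = 0.895) at day 15 and 0.25 ± 0.326 (adjusted p = 0.556) at day 19. PEX8, on the inner face of the membrane, linking docking and RING complexes, differed by -0.22 ± 0.238 (adjusted p = 0.479), -0.31 ± 0.238 (adjusted p = 0.306) and -0.08 ± 0.238 (adjusted p = 0.797). At day 7 and day 15 all bottle arrays of PEX8 lay below the reference, by amounts that did not pass.

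The RING peroxins ubiquitinate the import receptors, and PEX2 was called at every time, PEX10 at day 7 and day 19. PEX2 had 10.23, 10.93 and 11.08 at day 7, 10.81, 11.29 and 11.23 at day 15 and 10.94, 10.50 and 10.06 at day 19. Reference arrays of PEX2 had 9.66, 9.68 and 9.63. All bottle arrays exceeded the reference, with changes of 1.09 ± 0.279 (adjusted p = 0.0111) at day 7, 1.46 ± 0.279 (adjusted p = 0.00198) at day 15 and 0.84 ± 0.279 (adjusted p = 0.0307) at day 19. PEX10 had 10.59, 10.31 and 10.54 at day 7, 10.01, 10.57 and 10.58 at day 15 and 10.90, 10.16 and 10.63 at day 19. Reference arrays of PEX10 had 9.74, 9.73 and 9.98. Day 15 replicate 1 came within reach of the reference and the others lay above it. The change was 0.66 ± 0.238 (adjusted p = 0.0476) at day 7, 0.57 ± 0.238 (adjusted p = 0.0713) at day 15 and 0.74 ± 0.238 (adjusted p = 0.0266) at day 19. The day 19 call of PEX2 was lost without reference replicate 1, 2 or 3 or day 19 replicate 1 or 2 (adjusted p up to 0.0878). That of PEX10 was lost without reference replicate 1 or 2 or day 19 replicate 1 or 3 (adjusted p up to 0.0884). The day 7 call of PEX10 was lost in 9 of 12 fits that left out 1 array, without reference replicate 1, 2 or 3, day 7 replicate 1, 2 or 3, day 15 replicate 2 or 3 or day 19 replicate 3 (adjusted p up to 0.139).

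Of the peroxins that return receptors to the cytosol, 3 of 4 were called at every time. PEX15, the membrane anchor of the ATPase complex, had 10.46, 9.96 and 10.26 at day 7, 9.86, 10.44 and 10.46 at day 15 and 11.23, 10.28 and 10.62 at day 19. Reference arrays of PEX15 had 8.82, 8.93 and 9.27. The groups were clearly separate, and the change was 1.22 ± 0.279 (adjusted p = 0.00652) at day 7, 1.25 ± 0.279 (adjusted p = 0.0045) at day 15 and 1.70 ± 0.279 (adjusted p = 0.000895) at day 19. PEX4, the ubiquitin-conjugating enzyme for receptors, had 9.32, 8.69 and 8.03 at day 7, 8.41, 8.36 and 8.06 at day 15 and 9.03, 8.66 and 8.63 at day 19. Reference arrays of PEX4 had 7.39, 7.31 and 7.34. No bottle array overlapped the reference, and day 7 replicate 1 was the highest. PEX4 differed by 1.33 ± 0.285 (adjusted p = 0.0046) at day 7, 0.93 ± 0.285 (adjusted p = 0.0206) at day 15 and 1.42 ± 0.285 (adjusted p = 0.00273) at day 19. The PEX4 day 15 call was lost without reference replicate 1, 2 or 3 or day 15 replicate 1 or 2 (adjusted p up to 0.0647). PEX22, the membrane anchor of Pex4, had 9.92, 10.11 and 10.38 at day 7, 10.08, 10.04 and 10.55 at day 15 and 10.54, 10.11 and 11.13 at day 19. Reference arrays of PEX22 had 9.27, 9.10 and 9.24. Bottle and reference arrays did not overlap. The change was 0.93 ± 0.265 (adjusted p = 0.018) at day 7, 1.02 ± 0.265 (adjusted p = 0.00936) at day 15 and 1.39 ± 0.265 (adjusted p = 0.0021) at day 19. The PEX22 day 7 call was lost without reference replicate 2 or day 7 replicate 3 (adjusted p up to 0.0664). PEX6, an ATPase of the same step, lay between 7.68 and 8.58 in the bottles, against 8.12 to 8.31 in the reference, and differed by -0.06 ± 0.228 (adjusted p = 0.848) at day 7, 0.18 ± 0.228 (adjusted p = 0.53) at day 15 and -0.13 ± 0.228 (adjusted p = 0.666) at day 19. Its day 19 arrays all lay just below the reference.

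None of the PEX11 family, known for peroxisome elongation and division, was called at day 7, and PEX27 was the only one called at day 15 and day 19. PEX11, its best known member and a target of oleate induction, had 11.17, 10.80 and 11.06 at day 7, 11.09, 10.98 and 11.22 at day 15 and 12.92, 11.05 and 10.62 at day 19. Reference arrays of PEX11 had 10.85, 10.98 and 10.78. Except for day 19 replicate 1, the bottle arrays lay between 10.62 and 11.22, around the reference level, and the changes were 0.14 ± 0.452 (adjusted p = 0.829) at day 7, 0.22 ± 0.452 (adjusted p = 0.709) at day 15 and 0.66 ± 0.452 (adjusted p = 0.256) at day 19. Without that array the day 19 change was -0.04 (adjusted p = 0.895). PEX25, which takes part in forming and elongating peroxisomes, had 9.11, 10.39 and 10.84 at day 7, 10.68, 11.05 and 10.91 at day 15 and 10.25, 11.15 and 11.18 at day 19. Reference arrays of PEX25 had 10.93, 10.97 and 11.32. At day 7 all its arrays lay below the reference, and the changes were -0.96 ± 0.399 (adjusted p = 0.0785) at day 7, -0.19 ± 0.399 (adjusted p = 0.722) at day 15 and -0.21 ± 0.399 (adjusted p = 0.689) at day 19. Without day 7 replicate 3, PEX25 was called lower at day 7 (adjusted p = 0.0317). PEX27, a paralogue of PEX25, had 8.49, 8.12 and 8.51 at day 7, 8.20, 8.88 and 8.95 at day 15 and 9.03, 8.0 and 8.41 at day 19. Reference arrays of PEX27 had 7.38, 7.47 and 8.0. Day 7 and day 15 arrays were above the reference. PEX27 differed by 0.75 ± 0.306 (adjusted p = 0.0728) at day 7, 1.06 ± 0.306 (adjusted p = 0.0157) at day 15 and 0.87 ± 0.306 (adjusted p = 0.0396) at day 19. Its day 19 replicate 2 came no higher than the highest reference array. The PEX27 call at day 15 was lost without reference replicate 1 or 2 or day 15 replicate 2 or 3 (adjusted p up to 0.0658). At day 19 it was lost without reference replicate 1 or 2 or day 19 replicate 1 or 3 (adjusted p up to 0.13).

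Of the 5 peroxins of the endoplasmic reticulum and peroxisome that restrict peroxisome size and number, PEX29 was called at every time, PEX28 at day 19 and the other 3 at none. PEX29 had 10.18, 9.77 and 10.07 at day 7, 9.90, 10.87 and 10.72 at day 15 and 10.28, 9.69 and 10.32 at day 19. Reference arrays of PEX29 had 8.80, 8.77 and 9.18. All bottle arrays were above the reference, and the change was 1.10 ± 0.283 (adjusted p = 0.0117) at day 7, 1.58 ± 0.283 (adjusted p = 0.00135) at day 15 and 1.18 ± 0.283 (adjusted p = 0.0068) at day 19. PEX28 had 9.50, 9.12 and 9.28 at day 7, 8.78, 9.43 and 9.38 at day 15 and 10.38, 9.25 and 9.31 at day 19. Reference arrays of PEX28 had 8.58, 8.59 and 8.72. Day 19 replicate 1 was the highest array, and day 15 replicate 1 lay just above the reference. The changes were 0.67 ± 0.301 (adjusted p = 0.101) at day 7, 0.57 ± 0.301 (adjusted p = 0.146) at day 15 and 1.01 ± 0.301 (adjusted p = 0.019) at day 19. The call at day 19 was lost without reference replicate 1 or 2 (adjusted p up to 0.0596). PEX31 had 8.15, 8.93 and 9.09 at day 7, 9.36, 9.40 and 9.30 at day 15 and 8.80, 9.79 and 10.04 at day 19. Reference arrays of PEX31 had 9.55, 9.30 and 9.44. At day 7 its arrays lay below the reference, and the changes of -0.71 ± 0.324 (adjusted p = 0.105) at day 7, -0.08 ± 0.324 (adjusted p = 0.856) at day 15 and 0.11 ± 0.324 (adjusted p = 0.802) at day 19 did not pass. Without day 19 replicate 1 the day 7 value was -0.71 (adjusted p = 0.0321), a call. PEX30 and PEX32 were not called either, with changes between 0.22 and 0.49 for PEX30 and between -0.37 and -0.17 for PEX32.

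The median change of enzymes and transporters exceeded that of peroxins at each time. It was 1.33 at day 7, 1.79 at day 15 and 2.11 at day 19, and that of the peroxins 0.71, 0.82 and 0.94. Even at its lower bound PEX18 had the largest peroxin change, so the bound cannot move the peroxin median. Of the 12 enzymes and transporters 6, 8 and 10 were called higher, and of the 24 peroxins 11, 13 and 16, where 19.7%, 21.4% and 22.7% of all genes were. MDH3 and ANT1 were the 2 enzymes and transporters called at no time, while PEX6, PEX8, PEX11, PEX17, PEX25, PEX30, PEX31 and PEX32 were the 8 such peroxins. The difference between the class medians was 0.62, 0.98 and 1.17, and without both arrays that stood apart it was 0.46, 0.98 and 0.84. No test was made of this difference, since genes are not replicates and the members were chosen with earlier results known. The mean change of the enzymes and transporters on single arrays lay between 1.22 and 3.78 in the bottles, against -0.15 to 0.18 in the reference. That of the peroxins lay between 0.60 and 1.27 in the bottles, against -0.07 to 0.09 in the reference. Since PEX18 was below background in the reference, its difference has only a lower bound, and without it the mean of 23 peroxins lay between 0.44 and 1.04 in the bottles, against -0.06 to 0.09 in the reference.

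**Figure D3:**
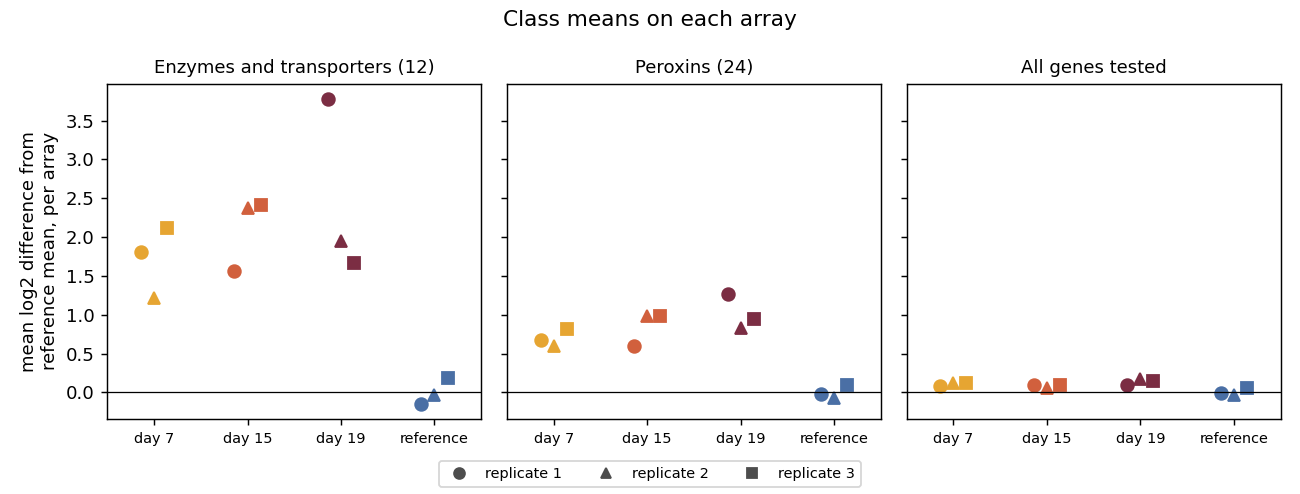
Mean over genes of the log2 difference from each gene's reference mean (y axis), on each array at day 7, day 15, day 19 and in the reference (x axis), for 12 enzymes and transporters, 24 peroxins and all 5449 genes tested. The bottle arrays of the first class reach 3.78 on replicate 1 of day 19, those of the peroxins 1.27 (1.04 without PEX18), and those of all genes stay near 0.

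A single array, replicate 1 of day 19, carried the highest values of most beta-oxidation genes. Of the 38 members 24 had their highest value of all 12 arrays there, as did 14.8% of all genes, and the share was 11 of 12 among enzymes and transporters and 12 of 24 among peroxins. SPS19 exceeded the mean of the other 2 day 19 arrays by 3.42 log2 units, POX1 by 2.88, FOX2 by 2.69, POT1 and IDP3 by 2.46 each, PXA1 by 2.36 and ECI1 by 2.25. The median excess was 2.30 for enzymes and transporters and 0.39 for peroxins, against 0.00 over all genes. PEX11 was the peroxin with the largest excess, 2.08. PEX31, PEX25, PEX21, OAF1 and PEX13 lay lower on that array than on the other 2 day 19 arrays, by the most for a member, at -1.11, -0.92, -0.64, -0.62 and -0.36. On that array the ribosomal RNA probe sets averaged 12.01 and the 3' excess of ACT1 was 0.39, both within the range of the other bottle arrays (11.05 to 13.16 and 0.12 to 0.62). The cause of its high values was not tested. The median SD of enzymes and transporters was 1.34 at day 19, against 0.525 at day 7 and 0.439 at day 15. At day 19 that of the peroxins was 0.411, and that of all genes tested 0.428.

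**Figure D4:**
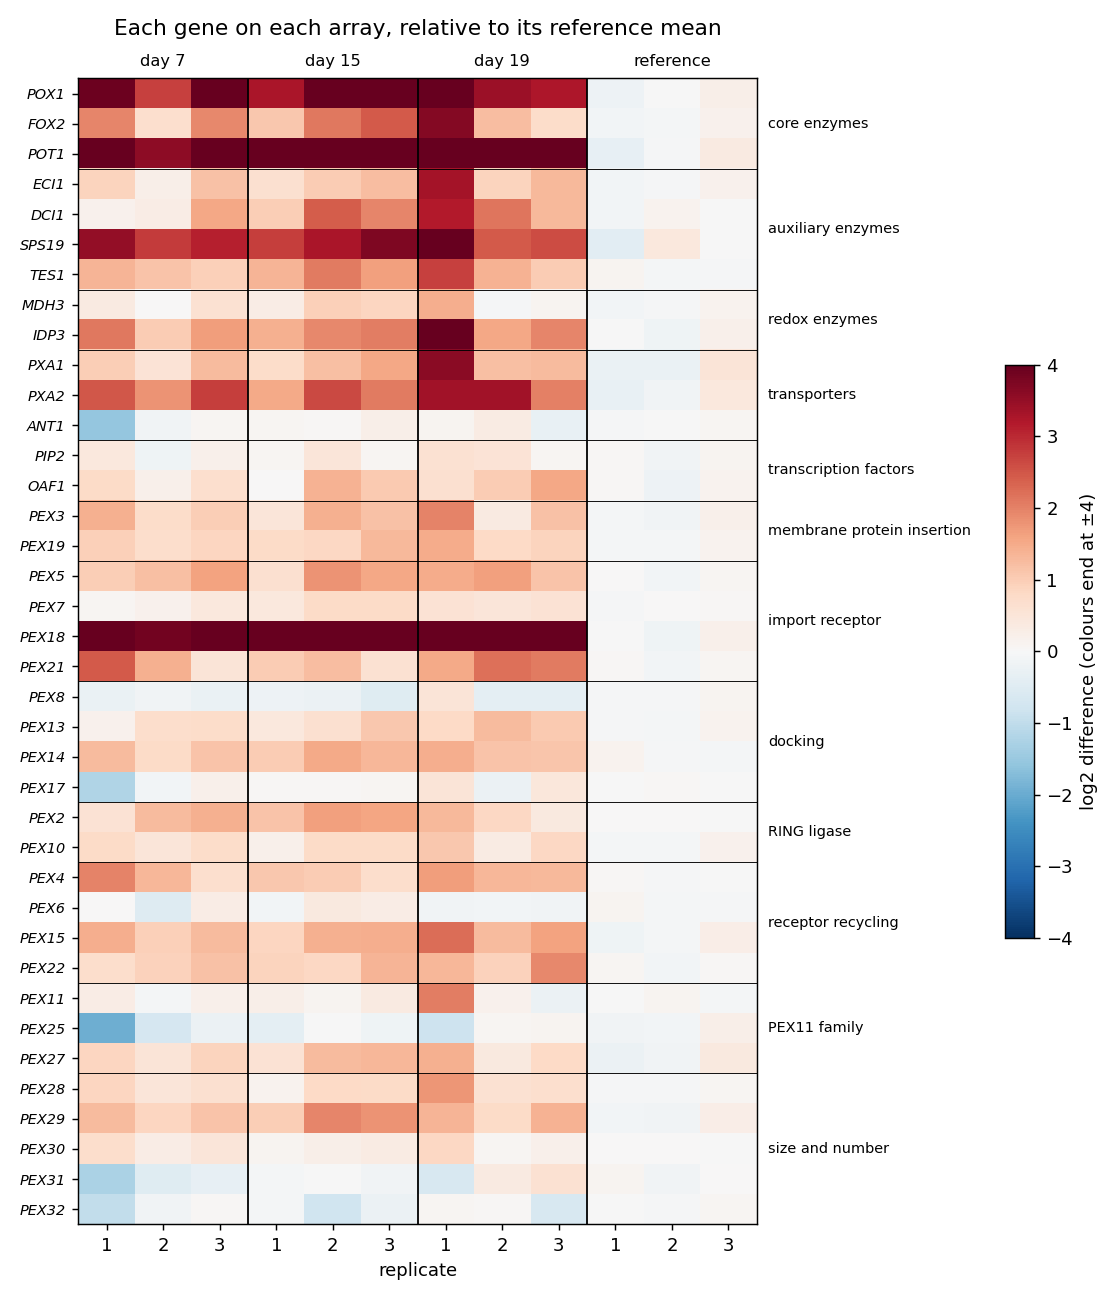
Log2 difference of each of the 38 genes (rows, by role) from its own reference mean on each of the 12 arrays (columns, by group and replicate), with red for higher, blue for lower and colours ending at ±4. Replicate 1 of day 19 is the darkest column for most enzymes, while PEX8, PEX25, PEX31 and PEX32 are pale or blue on most bottle arrays.

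Between the bottle times no member was called. At day 15 against day 7 and at day 19 against day 15, limma called 0% of all genes tested, and at day 19 against day 7 0.147%. The F-test of any difference among the 3 times called 0.0367% of genes and 0 members. At an unadjusted p under 0.05, 1 member differed between day 15 and day 7 (10.5% of all genes), 2 between day 19 and day 15 (11.0%), 3 between day 19 and day 7 (12.4%) and 2 in the F-test (12.6%). These genes were picked out after their values were seen. PEX7 differed by 0.42 ± 0.177 at day 15 against day 7 (adjusted p = 0.451). At day 19 against day 15, PEX21 differed by 0.98 ± 0.403 (adjusted p = 0.436) and PEX2 by -0.61 ± 0.279 (adjusted p = 0.453). At day 19 against day 7, DCI1 differed by 1.52 ± 0.508 (adjusted p = 0.27), PEX18 by 1.36 ± 0.477 (adjusted p = 0.272) and PEX31 by 0.82 ± 0.324 (adjusted p = 0.344). The members' median difference was 0.21 at day 15 against day 7, 0.19 at day 19 against day 15 and 0.47 at day 19 against day 7. Without day 19 replicate 1, PEX31 was called higher at day 19 than at day 7, by 1.19 (adjusted p = 0.0274).

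Other genes of the peroxisome, from lists written from textbook knowledge, were called in both directions. Of 16 further peroxisomal enzymes and transporters, 8 were called higher and 2 lower at day 7, 8 and 1 at day 15, and 10 and 2 at day 19, with median changes of 0.96, 1.09 and 1.28. Of all genes 19.7%, 21.4% and 22.7% were called higher and 17.1%, 23.5% and 20.8% lower. CTA1, the peroxisomal catalase that removes the hydrogen peroxide made by Pox1, had 10.43, 8.25 and 11.21 at day 7, 8.56, 11.69 and 10.92 at day 15 and 12.68, 11.73 and 10.05 at day 19. Reference arrays of CTA1 had 6.20, 6.28 and 7.06. Its bottle arrays did not overlap the reference, and the change was 3.45 ± 0.916 (adjusted p = 0.0134) at day 7, 3.88 ± 0.916 (adjusted p = 0.00584) at day 15 and 4.97 ± 0.916 (adjusted p = 0.00173) at day 19. Without day 7 replicate 3 the day 7 change of CTA1 was 2.83 (adjusted p = 0.0545), and without day 7 replicate 2 it was 4.31. The day 15 change was 4.79 without day 15 replicate 1 and 3.23 without replicate 2, and the day 19 change 4.38 without day 19 replicate 1 and 5.69 without replicate 3. MLS1, the malate synthase of the glyoxylate cycle, differed by 4.65 ± 1.01 (adjusted p = 0.00506) at day 7, 3.95 ± 1.01 (adjusted p = 0.00887) at day 15 and 4.72 ± 1.01 (adjusted p = 0.00392) at day 19. Without single arrays MLS1 ranged from 3.77 (without day 7 replicate 1) to 5.75 (without day 7 replicate 2) at day 7. At day 19 it ranged from 3.53 (without day 19 replicate 1) to 5.39 (without day 19 replicate 3). STR3, a peroxisomal cystathionine beta-lyase, differed by 3.09 ± 0.366 (adjusted p = 0.000142) at day 7, 2.64 ± 0.366 (adjusted p = 0.00034) at day 15 and 4.66 ± 0.366 (adjusted p = 1.1e-05) at day 19. The genes called lower, named after their values were seen, were FAT1, a fatty acid transporter and acyl-CoA synthetase, with -1.25 ± 0.398 (adjusted p = 0.0295) at day 7 and -1.29 ± 0.398 (adjusted p = 0.0224) at day 19, and AAT2, an aspartate aminotransferase. AAT2 differed by -0.60 ± 0.2 (adjusted p = 0.0359) at day 7, -0.89 ± 0.2 (adjusted p = 0.00458) at day 15 and -0.95 ± 0.2 (adjusted p = 0.00351) at day 19. The FAT1 call was lost without any 1 reference array at day 7 and day 19, and at day 7 also without day 7 replicate 1 or 3 (adjusted p up to 0.101). The day 7 call of AAT2 was lost without any 1 reference array, day 7 replicate 1 or 3 or day 15 replicate 3 (adjusted p up to 0.114).

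Of 6 genes of peroxisome inheritance, fission and turnover, 2 were called higher at each time, and 0, 1 and 1 lower, so few genes that these counts stand close to the 19.7% to 22.7% higher and 17.1% to 23.5% lower of all genes. ATG36, the receptor for the selective breakdown of peroxisomes, differed by 2.39 ± 0.615 (adjusted p = 0.0116) at day 7, 2.02 ± 0.615 (adjusted p = 0.0201) at day 15 and 2.50 ± 0.615 (adjusted p = 0.00791) at day 19. The ATG36 change at day 19 was 1.67 (adjusted p = 0.00961) without day 19 replicate 1. Its day 15 call was lost without reference replicate 1 or 2 or day 15 replicate 2 or 3 (adjusted p up to 0.0791). INP1, which retains peroxisomes in the mother cell, differed by 0.71 ± 0.192 (adjusted p = 0.0142) at day 7, 0.97 ± 0.192 (adjusted p = 0.00236) at day 15 and 1.27 ± 0.192 (adjusted p = 0.000541) at day 19. The day 7 call of INP1 was lost without reference replicate 2 or day 7 replicate 2 (adjusted p up to 0.0636). VPS1, a dynamin-like GTPase of peroxisome fission, differed by -0.59 ± 0.276 (adjusted p = 0.11) at day 7, -1.19 ± 0.276 (adjusted p = 0.00532) at day 15 and -1.46 ± 0.276 (adjusted p = 0.00197) at day 19. Of 4 other regulators 2 were called higher at each time and none lower, beside 19.7% to 22.7% higher and 17.1% to 23.5% lower of all genes. SNF1 and OAF3 were not called. At day 7, day 15 and day 19 SNF1 differed by -0.46, -0.35 and -0.48, and OAF3 by -0.02, -0.36 and 0.17. CAT8, an activator of gluconeogenic genes, differed by 4.45 ± 0.616 (adjusted p = 0.000372) at day 7, 4.32 ± 0.616 (adjusted p = 0.000399) at day 15 and 3.85 ± 0.616 (adjusted p = 0.000768) at day 19. The CAT8 change at day 15 was 5.00 without day 15 replicate 1. ADR1 had 10.24, 9.69 and 10.11 at day 7, 9.43, 10.64 and 10.72 at day 15 and 10.69, 9.05 and 9.99 at day 19. Reference arrays of ADR1 had 7.03, 6.93 and 6.77. All bottle arrays of ADR1 lay at least 2 log2 units above the reference, and the change was 3.11 ± 0.417 (adjusted p = 0.000311) at day 7, 3.36 ± 0.417 (adjusted p = 0.000169) at day 15 and 3.00 ± 0.417 (adjusted p = 0.000324) at day 19. PEX34, a further peroxin, differed by 0.27 ± 0.233 (adjusted p = 0.38) at day 7, -0.04 ± 0.233 (adjusted p = 0.89) at day 15 and 0.51 ± 0.233 (adjusted p = 0.0964) at day 19.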

How the data were processed

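Total RNA of 12 samples was labelled with biotin and hybridised to Affymetrix yeast expression arrays, per the labels' protocols. The deposited values are log2 probe set intensities that the authors summarised with RMA, per the submitters' processing notes; no software, version or genome build is named (not given in the sources used here). RMA normalizes arrays against each other, so a shift shared by most genes cannot be seen in these values.

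Of 10928 probe sets, 5498 named 1 S. cerevisiae gene in the platform annotation, 12 symbols being updated through RefSeq. Each of 47 genes with several probe sets was represented by the brightest on average, which left 5449 genes. One fit in limma 3.58.1 (R 4.3.3; lmFit, eBayes) over the 4 groups gave differences with their SE (8 residual and 3.42 prior degrees of freedom). P-values were adjusted by Benjamini-Hochberg over all genes within each comparison, and calls were made at 0.05. A moderated F-test compared the 3 bottle times. The code was tested on simulated data. The number of arrays limits the precision.

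The members and lists were chosen with earlier results of these data known. In each role, up to 3 members with the largest absolute change from the reference are given array by array. Samples were grouped by their sampling labels. Alternatives covered normalization, filters, probe set choice, eBayes settings, array weights, the threshold, the replicate number as a block and coding length. Others fitted only the groups compared or left out arrays. Replicate numbers were not taken as pairs: same-numbered samples of different groups correlated in their deviations between -0.28 and 0.41. Sequences were not used here.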

Additional observations from a re-analysis of the deposited data

Results flagged for a closer look

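Ribosomal RNA probe sets, which lie outside the comparisons of peroxisomal genes, were higher in the bottles. The 17 such probe sets averaged 12.20 ± 1.02 at day 7, 12.37 ± 0.515 at day 15 and 12.28 ± 0.791 at day 19, against 6.40 ± 1.34 in the reference (log2, SD, n = 3 each). The bottle arrays lay between 11.05 and 13.16, and the reference arrays between 5.52 and 7.95. Their part in the changes of the peroxisomal genes was not tested.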

How the results depend on the processing

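Over 25 alternatives, calls of single members were lost or gained, while no called member changed direction. Among the gains against the reference, PEX3 was called at day 7 in 8 alternatives, and PEX10 and PEX21 at day 15 in 5 each. FOX2 and ECI1 were called at day 7 in 4 and 3, and ECI1 at day 15 in 4. At day 7, 8 of 17 calls held under all 25 alternatives, namely PEX5, PEX14, PEX15, PEX18, POT1, POX1, PXA2 and SPS19. At day 15 and day 19, 13 of 21 and 16 of 27 held. With each array left out in turn, the day 7 count lay between 11 and 25, the day 15 count between 14 and 26 and the day 19 count between 19 and 27. Where the day 15 count was 14, without day 15 replicate 2, 31.1% of all genes were called in either direction. Where it was 26, without day 19 replicate 1, 52.3% were. At an adjusted p under 0.01 the counts were 9, 13 and 17, and with quantile normalization 14, 17 and 24. At day 15, 27.2% and 43.3% of all genes were called in these fits, in either direction, against 44.9% in the main fit. With array weights, whose estimate gave a convergence warning, 28 members were called at day 7 (26 higher, 2 lower), and 63.9% of all genes. The same weights called 9 members at day 15 against day 7 (27.1% of all genes), 3 at day 19 against day 15 (14.8%) and 10 in the F-test (33.5%). Without both day 7 replicate 1 and day 19 replicate 1, PEX21 was called at day 19 against day 15 (1 member, 4.79% of all genes), PEX21 and PEX31 at day 19 against day 7 (2 members, 9.8%), and 2 in the F-test (7.18%). With 1 array left out, 0 or 1 member was called at day 19 against day 7. The cause of these shifts was not tested.

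The enzyme minus peroxin difference of medians turned round between bottle times only. At day 15 against day 7 it was 0.20, and ran from -0.07 (without day 7 replicate 2) to 0.25 with 1 array left out. At day 19 against day 15 it was 0.24, -0.13 with array weights, -0.33 without both arrays that stood apart, and -0.33 to 0.74 with 1 array left out.

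With the replicate number as a block, 17 members were called at day 7 (16 higher, and PEX25 lower by -0.96, adjusted p = 0.03), 20 at day 15 and 26 at day 19, and 0 between bottle times. At day 15 this fit called 44.7% of all genes, in either direction. The block ended the calls of PEX10 at day 7, PEX3 at day 15 and FOX2 at day 19. The samples were not treated as pairs, since not every same-number correlation exceeded 0.1: 7 of 18 did, against 8 of 36 between different numbers. As a hint from the data, 7 of 12 arrays correlated best with their own number. Precision is limited by 3 arrays per group, and for PEX18 by a reference signal below background.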
